A study of Mus musculus with 18 samples.

Results

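The genes described here are 9 Toll-like receptor genes, Tlr1, Tlr2, Tlr3, Tlr4, Tlr6, Tlr7, Tlr8, Tlr9 and Tlr13, and Cd14, a co-receptor that hands ligands to some of these receptors. They were taken by gene symbol, without regard to their values, and are 10 of the 19197 genes measured. The heart apex of C57BL/6 mice, a common inbred strain, was taken 1 day after surgery and sequenced as 18 RNA libraries, in a study that names DCA, its receptor TGR5 and inflammation after myocardial infarction (MI), the death of heart muscle that follows loss of blood flow. The MI_DCA group had MI and received DCA at 10 mg/kg per day, the MI_vehicle group had MI and received vehicle, and the sham_vehicle group had a sham operation and received vehicle, with 6 libraries in each. DCA is not spelled out in the labels. It is taken to be deoxycholic acid, which gut bacteria make from bile acids, since TGR5 is the bile acid receptor of the cell membrane. All hearts were perfused before the apex was frozen. The age and sex of the mice and the route and start of dosing do not appear in the labels, nor whether each library is a separate mouse. A heart below stands for 1 library, n counts libraries, and p-values cover only the spread among these libraries, which may be technical.

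In GRCm38.p6, Tlr1 (chromosome 5, 64924680 to 64933600) and Tlr6 (chromosome 5, 64953092 to 64970942) are neighbours. So are Tlr8 (chromosome X, 167241123 to 167264329) and Tlr7 (chromosome X, 167303380 to 167330574). Tlr13 lies elsewhere on X (106143275 to 106160493), Tlr2 on chromosome 3 (83836272 to 83841824), Tlr3 on chromosome 8 (45395665 to 45411075), Tlr4 on chromosome 4 (66827551 to 66846581), Tlr9 on chromosome 9 (106222598 to 106226876) and Cd14 on chromosome 18 (36725064 to 36726815). Reads were 50 bases long, and 15.3% of the 50-base windows of Tlr1 transcripts also occur in Tlr6, whereas 12.6% of those of Tlr6 occur in Tlr1 or Ctsq, so values of Tlr1 and Tlr6 are uncertain by reads that could go to either. An exon of Tlr3 overlaps Gm45542 on the other strand, which holds 1.56% of the Tlr3 windows, and the use of strand in counting is not stated in the labels. The other 7 members shared no such window with another gene.

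Toll-like receptors recognise microbial products and molecules released by injured cells. Tlr1, Tlr2, Tlr4 and Tlr6 act at the cell surface, where Tlr2 pairs with Tlr1 or Tlr6 to bind lipoproteins and Tlr4 binds lipopolysaccharide with help from Cd14 and Ly96. Tlr3, Tlr7, Tlr8, Tlr9 and Tlr13 sit in endosomes and bind nucleic acids. Most signal through the adaptor Myd88 to NF-kB and AP-1, Tlr3 signals through Ticam1 to interferon regulatory factors, and Tlr4 uses both routes. In the heart they are found on macrophages, neutrophils and other leukocytes, and some also on cardiomyocytes, fibroblasts and endothelium.

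The 250 bases before a RefSeq transcript start are shown for Tlr13, Tlr1 and Tlr2, the 3 Toll-like receptor genes with the largest log2 fold change of FPKM + 1 after infarction (with 0.1 in place of 1, Tlr9 stood above Tlr2), and for Tlr3, the member that did not pass the test. They were copied from RefSeq (GRCm38.p6), run 5′ to 3′ on the strand of the gene, and carry in capitals the matches to 4 motifs searched on both strands.
Tlr13 (chrX:106143025-106143274, plus strand): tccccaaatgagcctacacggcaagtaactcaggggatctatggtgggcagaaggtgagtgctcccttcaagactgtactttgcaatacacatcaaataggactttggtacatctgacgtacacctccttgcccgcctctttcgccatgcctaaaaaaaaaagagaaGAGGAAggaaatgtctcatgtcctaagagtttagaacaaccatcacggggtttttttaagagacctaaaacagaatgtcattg
Tlr1 (chr5:64933559-64933808, minus strand): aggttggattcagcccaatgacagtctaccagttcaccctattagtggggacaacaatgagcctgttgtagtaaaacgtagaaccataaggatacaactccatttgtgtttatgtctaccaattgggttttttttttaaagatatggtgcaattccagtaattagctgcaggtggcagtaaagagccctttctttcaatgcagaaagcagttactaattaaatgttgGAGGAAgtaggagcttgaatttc
Tlr2 (chr3:83841609-83841858, minus strand): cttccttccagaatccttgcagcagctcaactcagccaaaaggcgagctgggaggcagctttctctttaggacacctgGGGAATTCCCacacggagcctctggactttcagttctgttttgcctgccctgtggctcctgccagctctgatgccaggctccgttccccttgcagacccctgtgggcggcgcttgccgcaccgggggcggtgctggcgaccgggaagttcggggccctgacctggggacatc
Tlr3 (chr8:45410381-45410630, minus strand): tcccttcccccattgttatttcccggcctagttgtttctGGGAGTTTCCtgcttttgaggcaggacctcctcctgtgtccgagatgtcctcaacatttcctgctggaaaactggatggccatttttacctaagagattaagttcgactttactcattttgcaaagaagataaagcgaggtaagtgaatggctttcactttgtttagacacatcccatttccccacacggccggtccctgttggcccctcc
The capitals in Tlr13 and Tlr1 are GAGGAA, a core of PU.1 sites, at 83 to 78 and 23 to 18 bases before the start. Those in Tlr2 and Tlr3 match the NF-kB consensus, at 172 to 163 bases before the start in Tlr2, where the match reads the same on both strands, and at 211 to 202 bases in Tlr3. Of these starts that of Tlr13 is the outer end of the gene, whereas those of Tlr1, Tlr2 and Tlr3 lie inside the gene's span, as do their matches, so that these 3 windows precede an internal start. RefSeq windows were at hand for 7 members, 9 windows in all, of which Tlr1 and Tlr6 had a pair each. In each pair 1 window held no match to the 4 motifs, for Tlr1 the one not shown (64932700 to 64932949). GAGGAA was in 4 of the 9 windows, those of Tlr1, Tlr8, Tlr9 and Tlr13, against 23.3% of 32851 mouse promoters of the same length. The NF-kB consensus was in 2 of 9, against 5% of all promoters. The AP-1 motif TGANTCA was in 1, that of Tlr9, against 6.75%, and the interferon-stimulated response element (GAAA, 2 bases of any kind, GAAA) in 1, that of Tlr6, where a pair of matches overlap, against 2.98%. Both Tlr6 windows lie inside the gene, and the bases after their starts were not found in its transcripts, so they may not be promoters of Tlr6. A match describes letters in this window and no binding was measured.

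Depth, estimated from the step that 1 read makes in low values, was 10100000 to 12900000 mapped reads per library in MI_DCA, 11100000 to 13800000 in MI_vehicle and 9600000 to 10700000 in sham hearts. At that depth the members rested on few reads where they were low, with an estimated 8 to 24 reads for Tlr6 and 10 to 23 for Tlr9 in sham hearts, and 146 to 569 for Cd14 in MI_vehicle hearts. Libraries of 1 group correlated at 0.965 to 0.996 in MI_DCA, 0.968 to 0.995 in MI_vehicle and 0.991 to 0.996 in sham hearts (Pearson's r across genes). The infarcted hearts were unequal in 2 genes, the atrial natriuretic peptide gene Nppa and the myosin gene Myh6. Nppa was 375.4 to 2974.7 FPKM in MI_DCA, 771.2 to 7037.0 in MI_vehicle and 136.4 to 440.1 in sham hearts, and Myh6 was 1309.1 to 4427.7, 1286.1 to 3771.3 and 4031.9 to 4667.9 FPKM in the same groups. MI_DCA hearts 1, 3 and 5 and MI_vehicle heart 4 had the lowest Nppa and highest Myh6 of their groups. Cardiomyocyte markers summed to 27002.3 FPKM or more in every heart.

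Infarction with vehicle was set against sham to ask what happened to the receptors without the drug. All 9 members other than Tlr3 rose, by log2 fold changes of 0.42 to 1.5, and no member fell. Among all 14797 genes tested, 34.7% rose and 17.7% fell, a smaller share of rises than the 9 of 10 here. The median log2 fold change was 0.68 over the members and 0.09 over all genes. In 5 members, Tlr1, Tlr2, Tlr8, Tlr9 and Tlr13, every MI_vehicle heart was above every sham heart, which was so for 14.4% of genes. Levels are in FPKM, fragments scaled by transcript length and library size. Fold changes compare log2(FPKM + 1), and a Benjamini-Hochberg adjusted p over all genes from limma, called under 0.05, goes with each. RNA of the whole apex was measured, so more cells of a type and more RNA per cell cannot be told apart.

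Among the surface receptors, Cd14 had the highest level. It ranged from 5.35 to 15.1 FPKM (median 7.54) in MI_DCA, 8.28 to 25.9 (median 16.3) in MI_vehicle and 4.68 to 8.51 (median 5.76) in sham hearts. In MI_vehicle 5 of 6 hearts were above all sham hearts, and the lowest, heart 4, lay just under the highest sham heart. Its log2 fold change for MI_vehicle against sham was 1.22 (SE 0.24, limma adjusted p = 0.00126). Tlr2, the shared partner of Tlr1 and Tlr6, was 2.05 to 6.84 FPKM (median 3.75) in MI_DCA, 4.29 to 6.91 (median 5.74) in MI_vehicle and 2.02 to 2.89 (median 2.25) in sham hearts. MI_vehicle and sham hearts were wholly apart, at a log2 fold change of 0.98 (SE 0.10, limma adjusted p = 4.17e-05). Tlr1, which with Tlr2 binds triacylated lipoproteins, was 2.5 to 7.37 FPKM (median 3.77) in MI_DCA, 3.61 to 9.96 (median 5.07) in MI_vehicle and 0.62 to 2.88 (median 1.62) in sham hearts. Here too all MI_vehicle hearts exceeded all sham hearts, with a log2 fold change of 1.31 (SE 0.22, limma adjusted p = 0.000539). Tlr6, the other Tlr2 partner, stayed lower, at 0.41 to 1.03 FPKM (median 0.735) in MI_DCA, 0.63 to 1.91 (median 1.37) in MI_vehicle and 0.23 to 0.63 (median 0.545) in sham hearts. It rose by 0.58 (SE 0.14, limma adjusted p = 0.00417) in MI_vehicle against sham, although MI_vehicle heart 4 only equalled the highest sham heart. Tlr4, the lipopolysaccharide receptor, was 2.94 to 6.68 FPKM (median 4.15) in MI_DCA, 3.59 to 5.87 (median 4.73) in MI_vehicle and 2.89 to 4.0 (median 3.25) in sham hearts. Its rise was the smallest that passed the test, with MI_vehicle heart 4 again within the sham range (0.42, SE 0.10, limma adjusted p = 0.0036). Quantile normalization shifted the median over all genes by -0.12, and under it the log2 fold change of Tlr4 was 0.25 (limma adjusted p = 0.0359).

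**Figure D1:**
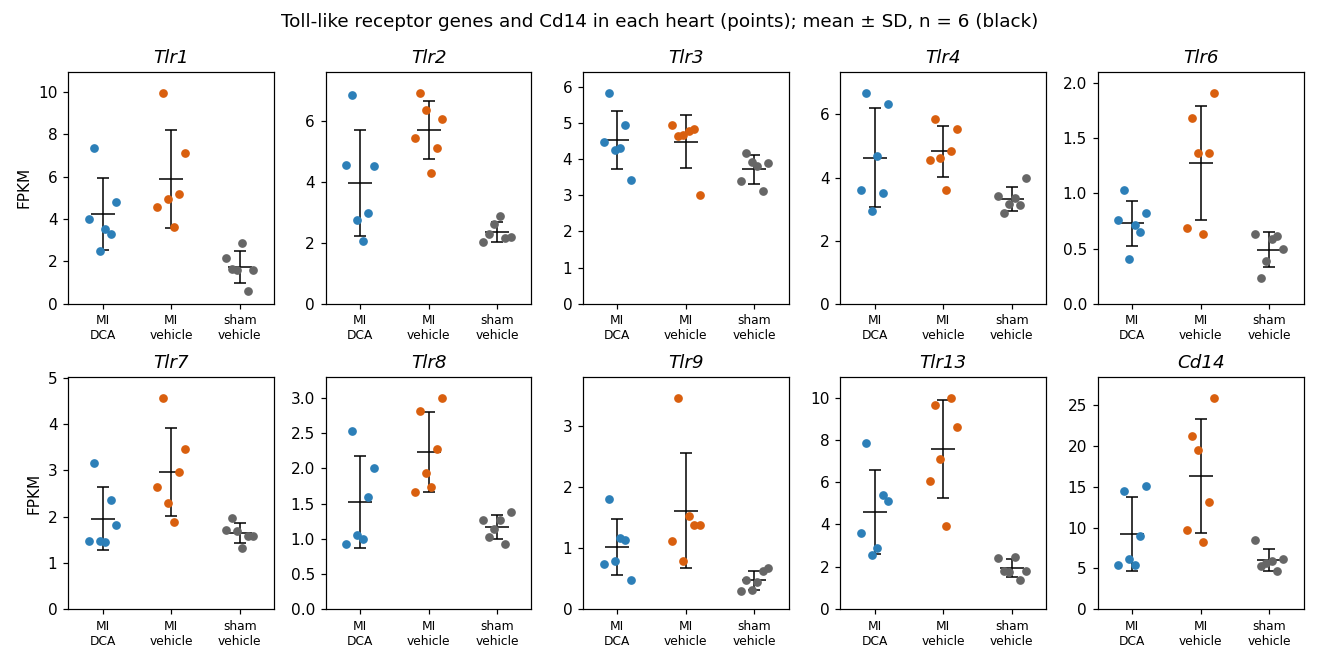
FPKM of each member in each heart, by group, with the mean and SD of 6 hearts in black; each panel has its own axis, starting at 0. All 6 MI_vehicle hearts lie above all 6 sham hearts for Tlr1, Tlr2, Tlr8, Tlr9 and Tlr13, and the MI_DCA hearts overlap with the MI_vehicle hearts in every panel.

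Among the endosomal receptors the log2 fold changes for MI_vehicle against sham ran from 0.21 to 1.5. Tlr13, which in mice recognises bacterial ribosomal RNA, had the largest rise of the 10, at 1.5 (SE 0.18, limma adjusted p = 8.13e-05) for MI_vehicle against sham. It was 2.56 to 7.87 FPKM (median 4.34) in MI_DCA, 3.95 to 9.97 (median 7.84) in MI_vehicle and 1.39 to 2.46 (median 1.81) in sham hearts, and both infarcted groups were wholly above sham. Tlr3, the receptor for double-stranded RNA, was 3.42 to 5.83 FPKM (median 4.39) in MI_DCA, 3.0 to 4.95 (median 4.72) in MI_vehicle and 3.11 to 4.18 (median 3.85) in sham hearts. In MI_vehicle 5 hearts were above all sham hearts and heart 6 was below them all, and the log2 fold change of 0.21 (SE 0.10, 95% interval -0.02 to 0.43) did not pass the test (limma adjusted p = 0.109). Without MI_vehicle heart 6 it was 0.30 with a limma adjusted p of 0.00868, and with quantile normalization 0.04 with 0.79.

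Tlr7, a receptor for single-stranded RNA, was 1.44 to 3.16 FPKM (median 1.65) in MI_DCA, 1.88 to 4.56 (median 2.81) in MI_vehicle and 1.32 to 1.97 (median 1.64) in sham hearts. It rose by 0.56 (SE 0.14, limma adjusted p = 0.00417) in MI_vehicle against sham, with heart 4 again inside the sham range. Tlr8, its neighbour on X and a receptor for RNA breakdown products in humans, was 0.93 to 2.54 FPKM (median 1.33) in MI_DCA, 1.66 to 3.0 (median 2.11) in MI_vehicle and 0.92 to 1.38 (median 1.2) in sham hearts. MI_vehicle and sham hearts did not overlap (0.57, SE 0.11, limma adjusted p = 0.00111). Tlr9, the receptor for unmethylated CpG DNA, including mitochondrial DNA, was 0.48 to 1.80 FPKM (median 0.955) in MI_DCA, 0.79 to 3.45 (median 1.38) in MI_vehicle and 0.30 to 0.67 (median 0.455) in sham hearts. It rose by 0.77 (SE 0.17, limma adjusted p = 0.0026), with no overlap between MI_vehicle and sham hearts. Adding 1 before taking logs understates the change of such low genes: with 0.1 in its place the MI_vehicle rise was 1.48 for Tlr9, 1.17 for Tlr6 and 0.86 for Tlr8. As ratios of means, MI_vehicle over sham, Tlr9 was at 3.41, close to Tlr1 at 3.36 and below Tlr13 at 3.91, whereas Tlr4 was at 1.45 and Tlr3 at 1.2.

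**Figure D2:**
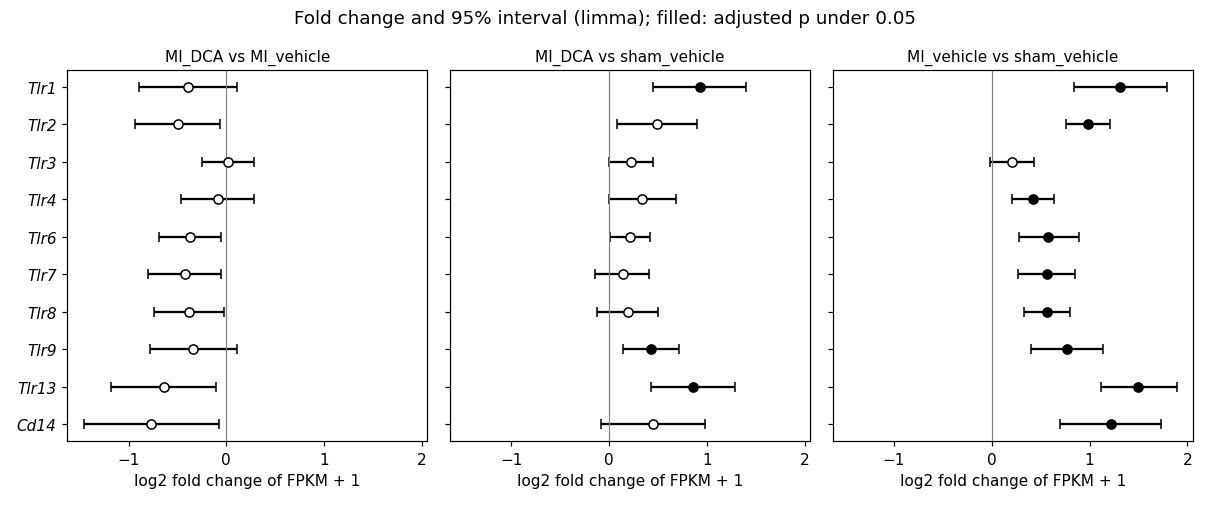
Log2 fold change of FPKM + 1 for each member with its 95% interval, in MI_DCA against MI_vehicle (left), MI_DCA against sham (middle) and MI_vehicle against sham (right). Filled points passed the test: none at the left, Tlr1, Tlr9 and Tlr13 in the middle, and all but Tlr3 at the right.

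MI_DCA was set against MI_vehicle to ask what treatment did after infarction. In this comparison 0 of 10 members passed the test, as did 0 of 14797 genes (0%), with a smallest limma adjusted p of 0.271 over all genes. Before adjustment 6 members had a limma p under 0.05, all lower in MI_DCA, against 8.92% of all genes lower at that level and 1.57% higher. The values of the 6 were -0.77 for Cd14 (SE 0.32, 95% interval -1.46 to -0.07), -0.64 for Tlr13 (SE 0.25, -1.18 to -0.11) and -0.49 for Tlr2 (SE 0.20, -0.93 to -0.06). Smaller values were those of Tlr7 at -0.42, Tlr8 at -0.38 and Tlr6 at -0.37. The limma adjusted p of the 10 members lay between 0.431 and 0.963. In every member the MI_DCA and MI_vehicle hearts overlapped, and over all genes 0.48% lay wholly lower and 0.0811% wholly higher in MI_DCA. MI_DCA hearts below the lowest MI_vehicle heart numbered 4 of 6 for Tlr7 and Tlr8, 3 of 6 for Cd14, Tlr1, Tlr2, Tlr9 and Tlr13, 2 for Tlr4, 1 for Tlr6 and 0 for Tlr3.

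That count of 6 members depended on single hearts. It was 0 without MI_DCA heart 3, 1 without MI_DCA heart 4, MI_vehicle heart 2 or MI_vehicle heart 6, and 3 without MI_DCA heart 1 or MI_vehicle heart 5. The highest count without 1 heart was 8, and with quantile normalization it was 2. Tlr1 and Tlr9 averaged lower in MI_DCA, at 4.26 ± 1.71 and 1.01 ± 0.464 FPKM, against 5.90 ± 2.30 and 1.60 ± 0.94 FPKM in MI_vehicle (SD, n = 6 each), with intervals that span 0 (-0.89 to 0.11 and -0.78 to 0.11 on the log2 scale). Tlr3 and Tlr4 were nearly level between these groups. Their log2 fold changes were 0.02 (95% interval -0.25 to 0.28) for Tlr3 and -0.09 (-0.46 to 0.28) for Tlr4, so changes within these intervals are not excluded.

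Infarcted hearts given DCA were also set against the same sham hearts, so this comparison shares samples with both others. All 10 log2 fold changes were above 0, with a median of 0.38 against 0.04 over all genes. Tlr1 (0.93, SE 0.22, limma adjusted p = 0.0207), Tlr13 (0.86, SE 0.20, limma adjusted p = 0.0196) and Tlr9 (0.43, SE 0.13, limma adjusted p = 0.0419) rose, 3 of 10, where 12.2% of all genes rose and 6.68% fell. Tlr13 was the 1 member with no overlap between MI_DCA and sham hearts, which held for 5.51% of genes in that direction. For Tlr1, 5 of 6 MI_DCA hearts were above all sham hearts, and heart 3 lay within the sham range. Tlr9 also had 5 of 6 above, with heart 6 within the range. The call of Tlr9 was lost in 12 of 18 alternatives, among them without any 1 of the 6 sham hearts or without MI_DCA heart 2, 4 or 5, with limma adjusted p between 0.0325 and 0.0868 over all of them.

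The other 7 members did not pass this test. Tlr2 was at 0.49 (SE 0.19, limma adjusted p = 0.0789) and passed without MI_DCA heart 4 (0.62, limma adjusted p = 0.0452). Tlr4 (0.34, limma adjusted p = 0.134) and Tlr6 (0.21, limma adjusted p = 0.118) passed without MI_DCA heart 3, at 0.43 and 0.27, which made 5 members called. Cd14 was at 0.45 (SE 0.24, limma adjusted p = 0.187), Tlr3 at 0.22, Tlr8 at 0.19 and Tlr7 at 0.14. Cd14 was 5.35, 14.5, 6.16, 5.36, 8.93 and 15.1 FPKM in MI_DCA hearts 1 to 6, of which hearts 1, 3 and 4 lay within the sham range and hearts 2, 5 and 6 above it. Whether a member differed from sham in one infarcted group more than in the other is what the comparison of MI_DCA with MI_vehicle tests, and 0 members passed there.

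**Figure D3:**
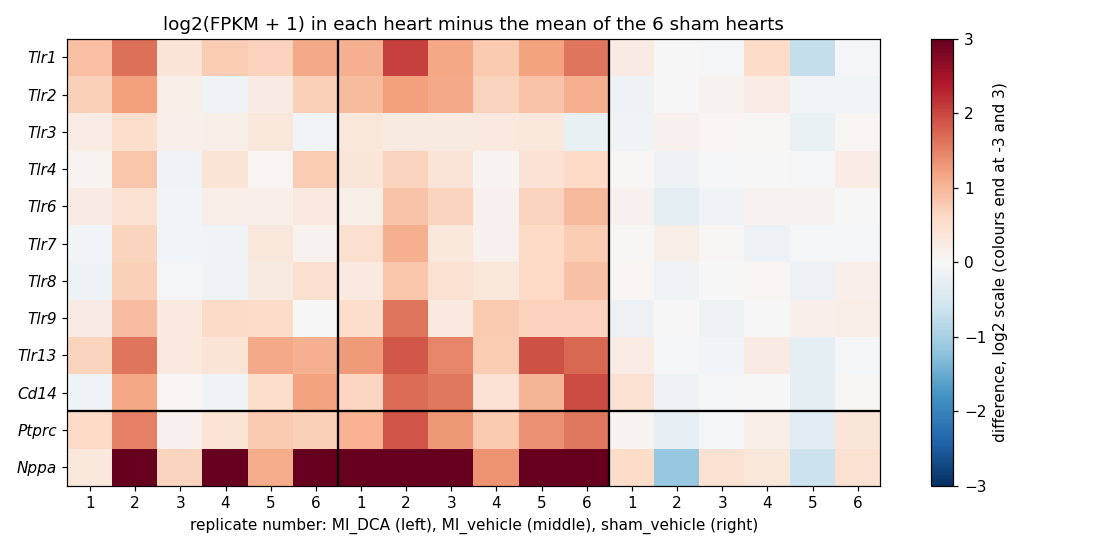
Difference of log2(FPKM + 1) in each heart from the mean of the 6 sham hearts, for the 10 members and, under the line, Ptprc and Nppa. Rows of the members darken together in MI_DCA heart 2 and in MI_vehicle hearts 2 and 6, apart from Tlr3 in MI_vehicle heart 6, and MI_DCA heart 3 is nearly as pale as the sham hearts.

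Read heart by heart, the members tended to stand high in the same hearts. MI_vehicle hearts 1, 2, 3 and 5 had all 10 members above the highest sham heart, heart 6 had 9, all but Tlr3, and heart 4 had 6. Of the MI_DCA hearts, heart 2 had 10 above, heart 5 had 9, heart 6 had 7, hearts 1 and 4 had 6 each and heart 3 had 3, namely Tlr3, Tlr9 and Tlr13. MI_DCA heart 4 had 2964.7 FPKM of Nppa and 6 members above sham, and MI_DCA heart 5 had 655.6 FPKM of Nppa and 9 members. Ptprc, which encodes CD45, a surface protein of all leukocytes, was 4.66 FPKM in MI_DCA heart 4 and 6.34 FPKM in MI_DCA heart 5. Whether the number of members above sham goes with Nppa or with Ptprc was not tested.

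The sum of the 9 receptor genes was 18.7 to 43.1 FPKM (median 25.0) in MI_DCA, 26.0 to 49.6 (median 36.0) in MI_vehicle and 14.2 to 19.0 (median 16.9) in sham hearts, and its make-up differed too. Tlr3 made up 17.6 ± 4.14% of the sum in MI_DCA, 12.9 ± 4.0% in MI_vehicle and 22.1 ± 2.15% in sham hearts (SD, n = 6 each). Tlr4 made up 17.1 ± 3.50% in MI_DCA, 13.4 ± 0.919% in MI_vehicle and 19.8 ± 2.22% in sham hearts. Against these, Tlr13 made up 16.4 ± 2.98% in MI_DCA, 20.4 ± 3.62% in MI_vehicle and 11.4 ± 1.63% in sham hearts. The shares of Tlr3, Tlr4 and Tlr13 in MI_vehicle hearts did not overlap with those in sham hearts. Shares of 1 sum are tied to each other and are given as a description, with no test.

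**Figure D4:**
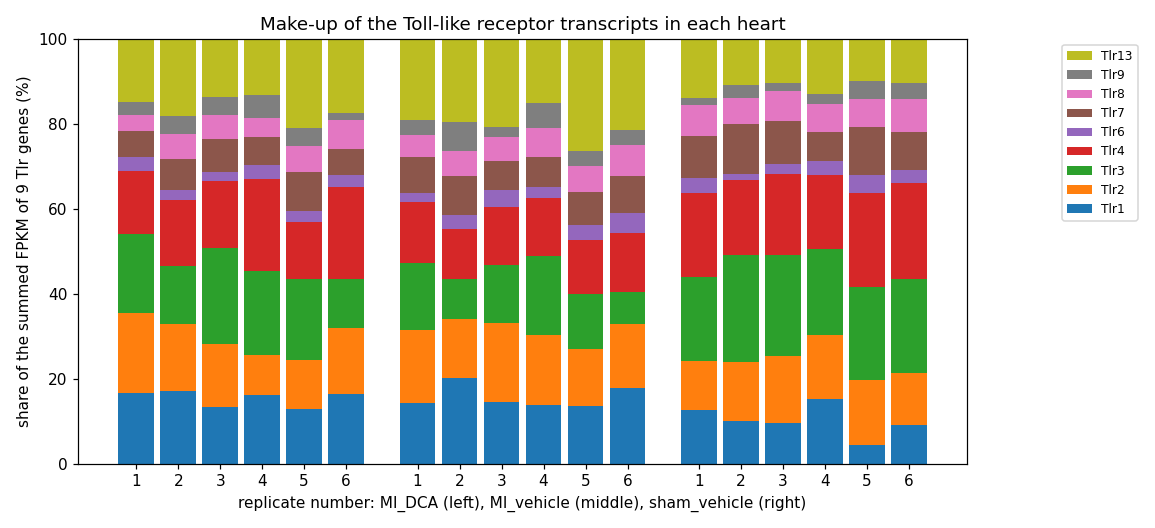
Share (%) of each receptor in the summed FPKM of the 9 Toll-like receptor genes, 1 bar per heart. Tlr13 at the top averages 20.4% in MI_vehicle hearts against 11.4% in sham hearts, and Tlr3 in the middle 12.9% against 22.1%.

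By level per length of transcript, Cd14 stood first in all groups. The libraries were enriched for coding transcripts, and whether all genes were enriched alike was not tested. Orders, shares and ratios between genes are therefore descriptions of these values. Tlr4, Tlr13, Tlr3, Tlr1 and Tlr2 followed in that order in MI_DCA hearts, at means of 4.62, 4.57, 4.54, 4.26 and 3.95 FPKM, and Tlr13, Tlr1, Tlr2, Tlr4 and Tlr3 in MI_vehicle hearts, at 7.56, 5.90, 5.69, 4.83 and 4.48 FPKM. In sham hearts Tlr3 (3.72 FPKM) and Tlr4 (3.33) stood ahead of Tlr2 (2.36), Tlr13 (1.93) and Tlr1 (1.75). Tlr7 and Tlr8 came next in every group, and Tlr6 and Tlr9 were lowest. Neighbours in these orders overlapped between hearts in both infarcted groups, and in sham hearts all did except Cd14 with Tlr3 and Tlr8 with Tlr6. Cd14 stood to Tlr4, which it serves, at a ratio of 1.14 to 2.54 (median 2.13) in MI_DCA, 2.14 to 4.68 (median 3.17) in MI_vehicle and 1.49 to 2.49 (median 1.77) in sham hearts.

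Likeness was measured as Pearson's r of the deviations from the group means of log2(FPKM + 1), over 18 hearts. It was ranked among the 11976 genes outside the members that averaged 1 FPKM or more, so another member could not be listed. All points share a heart's library and depth, and r is given as a description. Most like Tlr13 were Mpeg1 (r = 0.952), Nckap1l (0.952) and Ctss (0.945). Tlr1 was most like Evi2b (0.951), Nfam1 (0.941) and Plac8 (0.938), and Tlr8 most like Arhgap30 (0.919), Arhgap45 (0.915) and Ms4a6d (0.911). These 3 receptors also had the highest r with Ptprc, at 0.883 for Tlr13, 0.865 for Tlr8 and 0.856 for Tlr1.

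Tlr4 stood nearest to Tpd52 (0.971), Sdcbp (0.955) and Sbno2 (0.952), and of the members it had the strongest r with Myh6 (-0.90) and Nppa (0.804). Cd14 was nearest to Tspan14 (0.924), the chemokine gene Ccl9 (0.919) and Rab32 (0.911). For Tlr7 the nearest were Cttnbp2nl (0.915), Tnfrsf11a (0.898) and Myof (0.886), and for Tlr2 Mefv (0.878), Cln3 (0.869) and Mfsd1 (0.864). Tlr6 was nearest to Tbx18 (0.85), Irf2bpl (0.843) and Cebpg (0.84), and Tlr9 to Dock8 (0.828), Naaa (0.818) and Gm1966 (0.809). Tlr3 had the lowest r with its nearest genes, Depdc5 (0.792), Slfn5 (0.79) and Aph1b (0.782), and the lowest r with Ptprc, at 0.177.

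Most pan-leukocyte, monocyte and macrophage and neutrophil markers rose in MI_vehicle against sham, as most members did. All 10 pan-leukocyte markers and all 13 monocyte and macrophage markers rose in MI_vehicle against sham, by medians of 1.5 and 1.59 on the log2 scale (34.7% of all genes rose and 17.7% fell). Their summed levels were 188.1 to 526.4 and 415.9 to 1143.6 FPKM in MI_DCA, 275.6 to 691.5 and 655.8 to 1557.5 in MI_vehicle, and 106.1 to 184.6 and 316.8 to 551.6 in sham hearts. The most abundant pan-leukocyte markers were Cd52 (log2 fold change 2.04 in MI_vehicle against sham) and Arhgdib (0.84), and the most abundant monocyte and macrophage markers Lyz2, a lysozyme gene (0.71), and Fcer1g, an Fc receptor subunit (1.54). Of 10 neutrophil markers tested 7 rose, among them the growth factor receptor gene Csf3r (1.99) and the chemokine receptor gene Cxcr2 (1.13), and the sum of all 12 was 21.9 to 68.1 FPKM in MI_DCA, 29.7 to 148.8 in MI_vehicle and 7.1 to 19.6 in sham hearts. One of them, Camp, a granule peptide gene, was listed at 0 in all MI_DCA hearts. Of 8 markers of resident cardiac macrophages 3 fell and 0 rose, Gas6 (-0.50) and Cbr2 (-0.60) among those that fell, and they summed to 115.5 to 199.9 FPKM in MI_DCA, 112.4 to 197.3 in MI_vehicle and 166.8 to 192.9 in sham hearts. Between MI_DCA and MI_vehicle 0 markers of these lists passed the test, and the median log2 fold changes were -0.63 for pan-leukocyte, -0.59 for monocyte and macrophage and -0.65 for neutrophil markers, beside -0.38 for the members and -0.06 for all genes. With median-ratio scaling and quantile normalization the 10 pan-leukocyte rises in MI_vehicle against sham held, and 11 and 12 of the 13 monocyte and macrophage markers rose. In MI_DCA against sham 10 of 10 pan-leukocyte (9 with either scaling), 9 of 13 monocyte and macrophage and 6 of 10 neutrophil markers rose, beside 3 of 10 members. There 12.2% of all genes rose and 6.68% fell. Of the 8 resident cardiac macrophage markers 0 rose and 1 fell. Medians of these 4 lists were 0.88, 1.08, 0.85 and -0.26, beside 0.38 for the members. Between MI_DCA and MI_vehicle, without adjustment, 6 of 10 pan-leukocyte and 7 of 13 monocyte and macrophage markers had a limma p under 0.05. So did 3 of 10 neutrophil and 1 of 8 resident cardiac macrophage markers, and all of these were lower in MI_DCA. Over all genes 8.92% were lower and 1.57% higher at that level. The part of cell numbers in the values of the members was not tested.

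Other cell types the apex could hold were counted the same way, for MI_vehicle against sham. Platelet markers rose in 4 of 5 (Ppbp, 1.88, and Pf4, 0.90), lymphocyte and natural killer cell markers in 4 of 9 and dendritic and mast cell markers in 3 of 10. Among all genes 34.7% rose and 17.7% fell. Of the dendritic and mast cell list Kit (1.25) rose and Zbtb46 (0.16) was not called. The mast cell markers Cpa3 (-0.27), Mcpt4 (-0.3) and Tpsb2 (-0.18), named here after their values were seen, were lower without a call. With either scaling 2 dendritic and mast cell markers rose and 2 fell, and 2 of 9 lymphocyte and natural killer cell markers rose. Of 9 endothelial markers 1 rose and 2 fell, of 8 fibroblast markers 2 rose and 2 fell (Gsn, -1.59), and of 8 smooth muscle and pericyte markers 2 rose (Acta2, 0.67) and 3 fell (Rgs5, -1.15). Falls were more numerous after scaling, with 3 endothelial markers lower under median-ratio scaling and 4 under quantile normalization, and with 1 fibroblast marker higher and 3 lower under both. Of 9 cardiomyocyte markers 6 fell, such as Myl2 (-0.79), and 1, Actc1 (0.56), rose, which median-ratio scaling left uncalled. Epicardial and mesothelial (5) and erythroid (5) markers had 0 calls. Of 5 adipocyte markers 1, Fabp4 (-0.83), was tested and fell. The others were under the filter, so Fabp4 may not stand for adipocytes here. Of 4 atrial and conduction markers 1, Nppa, rose, and the skeletal muscle actin gene Acta1 (1.31) rose.

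The genes that work with the receptors were described from lists by role, 119 genes of which 112 were tested. In MI_vehicle against sham 76 rose and 7 fell, where 34.7% of all genes rose and 17.7% fell. With median-ratio scaling 67 rose and 12 fell, and with quantile normalization 66 rose and 13 fell. In MI_DCA against the same sham hearts 55 rose and 3 fell, where 12.2% of all genes rose and 6.68% fell. The MI_DCA total of 58 was 34 without sham heart 5 and 38 without MI_DCA heart 6. In MI_DCA against MI_vehicle 0 of the 112 passed the test, and 22 had a p under 0.05 before adjustment, all of them lower in MI_DCA (8.92% of all genes were lower at that level). Of the remaining Toll-like receptor genes of the mouse, Tlr11 and Tlr12 were at 0.16 FPKM or less in every heart and under the filter. Tlr5, the flagellin receptor, averaged 0.39 ± 0.197 FPKM in MI_DCA, 0.49 ± 0.0955 in MI_vehicle and 0.298 ± 0.132 in sham hearts (SD, n = 6 each), a log2 fold change of 0.20 for MI_vehicle against sham (limma adjusted p = 0.034) that did not pass with median-ratio scaling (0.16, limma adjusted p = 0.0936) or quantile normalization (0.14, 0.165), nor in 7 of 12 fits without 1 heart.

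Of 16 co-receptors and handling proteins 12 rose and 2 fell in MI_vehicle against sham, with a median of 0.63. Slc15a3, an endolysosomal transporter of histidine and peptides, averaged 8.31 FPKM in MI_DCA, 12.7 in MI_vehicle and 2.34 in sham hearts (log2 fold change 2.01, SE 0.16, MI_vehicle against sham). Ctss, a cathepsin that cuts endosomal receptors to their working form, rose by 1.99 (SE 0.21), Cd180, a surface relative of Tlr4, by 1.67 (SE 0.19) and Nrros, which restrains Toll-like receptor signalling, by 1.42 (SE 0.14). The scavenger receptor gene Cd36 (-0.97, SE 0.19) and Lbp, which brings lipopolysaccharide to Cd14 (-0.70, SE 0.16), fell. Ly96, the partner of Tlr4 also called MD-2 and named here after its values were seen, averaged 6.98 ± 0.994 FPKM in MI_DCA, 7.43 ± 1.13 in MI_vehicle and 6.03 ± 2.26 in sham hearts (SD, n = 6 each; log2 fold change 0.31 for MI_vehicle against sham, limma adjusted p = 0.16).

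Of 24 adaptors and kinases 13 rose and 0 fell in MI_vehicle against sham (median 0.30). Myd88, the adaptor of these Toll-like receptors other than Tlr3, averaged 20.5 FPKM in MI_DCA, 26.1 in MI_vehicle and 12.1 in sham hearts (log2 fold change 1.03, SE 0.12, MI_vehicle against sham). Pik3ap1, an adaptor that links to phosphoinositide 3-kinase, rose by 1.59 (SE 0.20), the kinase gene Ikbke by 1.2 (SE 0.19) and the ubiquitin ligase gene Traf3 by 0.64 (SE 0.11). Of 14 transcription factors 11 rose and 0 fell (median 0.64). They were led by Irf7 (1.95, SE 0.21), Fos (1.92, SE 0.18), Spi1 (1.49, SE 0.19), which encodes PU.1, and Irf5 (1.46, SE 0.18). Irf7 averaged 73.6 FPKM in MI_DCA and 72.8 in MI_vehicle, against 18.3 in sham hearts.

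Of 22 inhibitors 10 rose and 2 fell in MI_vehicle against sham (median 0.22), beside 34.7% and 17.7% of all genes. Atf3, a repressor induced by Toll-like receptors, rose by 2.24 (SE 0.31), Usp18, which curbs interferon signalling, by 1.38 (SE 0.16), the NF-kB inhibitor gene Nfkbie by 1.02 (SE 0.13) and Trim30a, which lowers Tab2 and Tab3, by 1.01 (SE 0.11). Pdcd4 (-0.49, SE 0.16) and the phosphatase gene Dusp1 (-0.43, SE 0.16) fell, Dusp1 with a limma adjusted p of 0.0406 that reached 0.0902 when 1 heart was left out. Usp18 averaged 11.5 FPKM in MI_DCA and 10.1 in MI_vehicle, against 3.27 in sham hearts.

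Of 17 genes listed for endogenous ligands, most of them reported for Tlr2 or Tlr4, 12 rose and 3 fell (MI_vehicle against sham, median 1.03). The 12 include Has1 (1.03) and Has2 (0.94), named here after their values were seen, which encode enzymes that make hyaluronan and are no ligands themselves. Tnc, a matrix glycoprotein, averaged 18.1 FPKM in MI_DCA, 38.2 in MI_vehicle and 1.56 in sham hearts, and the galectin gene Lgals3 averaged 49.3, 72.4 and 7.83 FPKM in these groups. The calprotectin genes S100a9 and S100a8 averaged 36.2 ± 27.2 and 19.7 ± 13.5 FPKM in MI_DCA and 74.4 ± 57.5 and 47.8 ± 42.7 in MI_vehicle. In sham hearts they averaged 5.35 ± 3.93 and 4.42 ± 3.08 FPKM (SD, n = 6 in each group). The proteoglycan gene Dcn (-1.12, SE 0.21), the cold-inducible gene Cirbp (-0.73, SE 0.15) and the mitochondrial chaperone gene Hspd1 (-0.24, SE 0.09) fell, Hspd1 with a limma adjusted p of 0.0367 that reached 0.0789 when 1 heart was left out. Of 18 target cytokines and effectors 17 rose and 0 fell, with the highest median of these lists, 1.74. Cxcl10 averaged 6.67 FPKM in MI_DCA, 9.56 in MI_vehicle and 0.537 in sham hearts. In the same groups Il1b averaged 7.81, 14.2 and 0.957 FPKM, Cxcl1 9.93, 16.2 and 2.01 FPKM and Ccl2 53.3, 74.5 and 6.2 FPKM. Between MI_DCA and MI_vehicle 0 of the 17 ligand genes and 0 of the 18 cytokines and effectors passed the test.

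**Figure D5:**
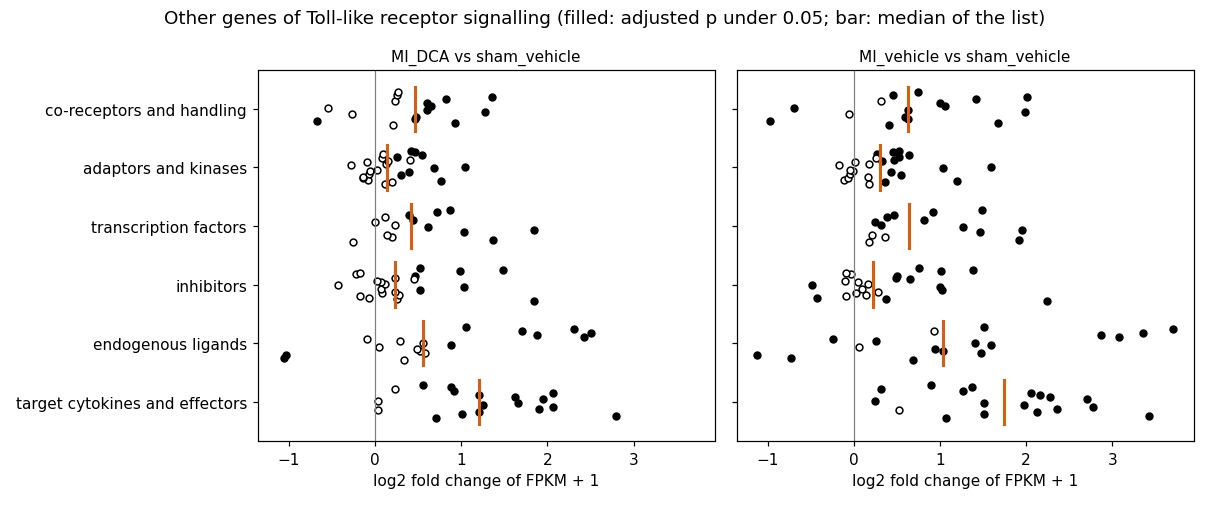
Log2 fold change of FPKM + 1 of each tested gene in 6 role lists, in MI_DCA against sham (left) and MI_vehicle against sham (right), with the median of each list as an orange bar. Filled points passed the test; the target cytokines and effectors have the highest median in both panels, and the 2 panels share the sham hearts.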

How the data were processed

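Each library came with gene and transcript values deposited by the authors as FPKM, rounded to 2 decimals. The files do not name the unit. It was read from the values, whose sum per library ran from 516274 to 584701 (coefficient of variation 3.09%) while the sum of value times length varied by 0.71%, as FPKM would give. Build GRCm38.p6 and the tools RSEM 1.2.12, Bowtie2 2.2.5 and DESeq2 1.4.5 come from the submitters' processing notes, which give them no role here, and the labels name 50-base single reads of RNA Access libraries, which enrich coding transcripts. FPKM holds no counts, so errors are spreads between hearts.

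Genes averaging 0.1 FPKM or more over 18 libraries (14797, all 10 members included) were tested with limma 3.58.1 in R 4.3.3 on log2(FPKM + 1), with an intensity trend, each comparison on its own 12 libraries. The test was tried on simulated data, with a log2 fold change of 1 in some genes. It recovered 89% of these in MI_vehicle against sham, 79% in MI_DCA against MI_vehicle and 87% in MI_DCA against sham. The member changes in MI_DCA against MI_vehicle, -0.77 to 0.02, were smaller in size than the simulated 1. Alternatives were median-ratio scaling, quantile normalization, a pseudocount of 0.1, a filter of 1 FPKM in 6 of 12 libraries, no filter, a replicate block, all 18 libraries in one fit, and leaving out each heart. The members, the lists and the rule for named genes were chosen with earlier results of these data known. The rule took all members, and up to 4 called genes of each role list with the largest MI_vehicle change plus those called against their list's majority. It also took the 2 most abundant markers of each cell list and, for each member, the 3 genes outside the members most like it. Markers under the filter or with no call are given by counts, apart from Zbtb46, Cpa3, Mcpt4 and Tpsb2. Promoters of Tlr4, Tlr7 and Cd14 are not shown.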

Additional observations from a re-analysis of the deposited data

Results flagged for a closer look

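Of 30 groups of 6 hearts, 10 members in 3 groups, 2 held a heart far from the others, where chance alone flags about 1 group in 20. Tlr3 was lowest in MI_vehicle heart 6, at 3.0 FPKM, with the nearest heart of the group at 4.64 FPKM, a gap of 0.841 of the group's range. Tlr9 was highest in MI_vehicle heart 2, at 3.45 FPKM, with the nearest at 1.52 FPKM, a gap of 0.726 of the range. In both hearts the other 9 members were above the highest sham heart.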

How the results depend on the processing

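The 9 calls of members in MI_vehicle against sham held under all alternatives that tested them, with 9 to 10 members called when 1 heart was left out. Tlr6 in every comparison, and Tlr9 in both comparisons with sham, were not tested under the filter of 1 FPKM. Over all members and comparisons 544 log2 fold changes kept their direction and side of the threshold, 4 gained a call, 12 lost one and 5 reversed. The reversals were near 0 and uncalled, in MI_DCA against MI_vehicle: Tlr3 at -0.07 without MI_vehicle heart 6, -0.05 without MI_DCA heart 2 and -0.01 without MI_DCA heart 5 (range without 1 heart -0.07 to 0.08), and Tlr4 at 0.01 with quantile normalization and without MI_DCA heart 3 (range -0.19 to 0.01). Members called in MI_DCA against sham numbered 2 to 5 when 1 heart was left out, 5 without MI_DCA heart 3. Over all genes the calls when 1 heart was left out were 6784 to 8753 in MI_vehicle against sham, 0 to 1 in MI_DCA against MI_vehicle (1 without MI_vehicle heart 5) and 883 to 4314 in MI_DCA against sham, where hearts on either side moved the count. Among called genes, 66.2% were higher in MI_vehicle against sham, 50.3% with median-ratio scaling and 46.8% with quantile normalization, and in MI_DCA against sham 64.6%, 49.7% and 46.1%. Samples of the 3 groups share replicate numbers. Deviations of same-numbered samples correlated at -0.05 to 0.13, -0.44 to 0.69 and -0.08 to 0.23 in the 3 comparisons. In each comparison 1 of 6, number 6, correlated best with its own number. The infarcted hearts also differed in Nppa and Myh6, so these values cannot show whether the numbers pair the hearts. A replicate block gave 4766 higher and 2444 lower genes in MI_vehicle against sham, 0 in MI_DCA against MI_vehicle and 1560 calls (1044 higher, 516 lower) in MI_DCA against sham. Counts of the role and cell lists, and of members at an unadjusted p, under the alternatives were added after seeing the data. Of the role lists 38 counts moved by over 1.5 times, or to or from 0, and 361 did not. The cause of these changes was not tested, and reads per gene, few for Tlr6 and Tlr9, limit the precision.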
